A study of Mus musculus with 8 samples.

Results

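The Hox genes of this study were taken as the gene symbols made of Hox, a cluster letter from a to d and a paralog number, and 39 of the 24538 genes in the count files matched. RNA was sequenced from cells sorted from newborn mice (postnatal day 0), all of the genotype Atoh1-GFP, in which green fluorescent protein (GFP) marks cells that express the transcription factor Atoh1. The 4 groups, each of 2 libraries, were Merkel and IFE cells from the paw, and the same cell types from back skin. Merkel cells, the touch receptors of the epidermis, were sorted as GFP+, EpCAM+ and Sca1-. IFE cells, whose name is left unexplained in the labels, were sorted as GFP-, EpCAM+ and Sca1+ from the same skin. The study's title sets hairy against glabrous skin, and the labels give the site as back skin or paw without telling forepaw from hindpaw. How many animals went into a library, and whether replicates are different animals, is not given there, so a p-value here reflects the spread between these samples alone, and that spread may be technical.

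Hox genes encode homeodomain transcription factors that give cells their position along the body axis and along the limb. They lie in clusters, and within a cluster the order on the chromosome matches the order of use: low paralog numbers act toward the head, and high numbers toward the tail and the tip of the limb. Genes with the same number in different clusters descend from the same ancestral gene and share part of their function. In adult skin the Hox pattern of a site is best known from dermal fibroblasts, and Hoxc13 is known for its role in hair and nail.

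The 39 genes lie in 4 clusters on the GRCm38 assembly (also called mm10), with positions from GENCODE vM21, and all 39 were found there. The Hoxa cluster has 11 genes on chromosome 6 (minus strand) and the Hoxb cluster 10 genes on chromosome 11 (96194316 to 96368256, plus strand). The Hoxc cluster has 9 genes on chromosome 15 (102921103 to 103036852, plus strand) and the Hoxd cluster 9 genes on chromosome 2 (74668310 to 74765142, plus strand). By paralog number 12 genes are called anterior here (numbers 1 to 4), 11 central (5 to 8) and 16 posterior (9 to 13). Exons of 7 of the 39 overlap another gene by more than 20% of their bases (Hoxa3, Hoxa7, Hoxa11, Hoxb2, Hoxb3, Hoxd3 and Hoxd4). The strand setting of the counting is not given in the sources used here, so reads of these genes and of their neighbours cannot be told apart. For Hoxb3 the overlap is 52.9%, with the antisense gene Hoxb3os, and its values are uncertain for that reason. Of the genes described in full below, Hoxa2 shares 15.0% of its exonic bases, Hoxc10 8.7% and Hoxa9 1.5%, and the other 8 share none.

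Libraries held 11139306 to 26195076 counts. Levels within a gene are given as CPM, counts scaled to library size (with TMM factors), and levels of different genes are compared only as the deposited FPKM, which also divides by transcript length. For cell type, the labels held: 8 of 8 Merkel markers (Atoh1, which entered the sort, among them) were higher and 7 of 7 basal keratinocyte markers lower in Merkel than in IFE cells at both sites, by edgeR's quasi-likelihood test with Benjamini-Hochberg adjustment at 0.05. In 1 library the Hox genes went against the site label. The library labelled back IFE 2 carried the Hox profile of the paw libraries, and so edgeR's Hox calls are given with and without it, while DESeq2 and limma-trend were run with all 8 libraries. Because its Hox levels set it apart, tests of Hox genes without it are conditioned on the values they test and are no independent evidence. The same holds for other genes that set it apart, such as En1, Hotair and Krt9, which are described below. In bulk RNA, fewer cells of a type and less RNA per cell cannot be told apart.

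Read along the clusters, the 8 libraries fell into 2 patterns of Hox transcripts. In paw Merkel 1 and 2 posterior genes made up 81.7% and 50.1% of the summed Hox FPKM, against 1.59% and 1.07% in back Merkel 1 and 2. Paw IFE 1 and 2 held 71.9% and 77.8%, against 3.91% in back IFE 1 and 68.6% in the library labelled back IFE 2. Posterior genes thus supplied at least 50.1% of the Hox signal in each paw library and under 4% in 3 of the 4 back libraries, with the library labelled back IFE 2 among the values of the paw. The mean paralog number, weighted by FPKM, was 10.1 and 7.81 in paw Merkel cells, against 4.51 and 4.32 in back Merkel cells. It was 9.7 and 9.77 in paw IFE cells, against 4.99 in back IFE 1 and 9.35 in the library labelled back IFE 2. The summed Hox FPKM itself ranged from 145 to 225 over the 8 libraries, so the patterns differed in which Hox genes were read more than in how much Hox RNA there was.

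**Figure D1:**
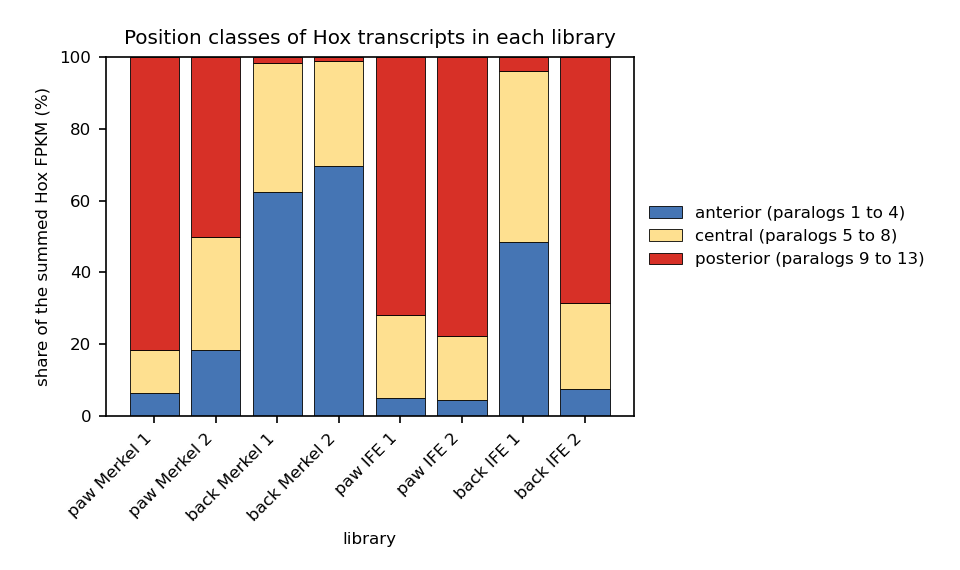
Share of the summed FPKM of the 39 Hox genes (y axis, percent) taken by anterior, central and posterior paralogs in each library (x axis), one stacked bar per library. Posterior shares are 81.7% and 50.1% in paw Merkel, 1.59% and 1.07% in back Merkel, 71.9% and 77.8% in paw IFE, 3.91% in back IFE 1 and 68.6% in back IFE 2.

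The clusters divided the same way. The Hoxc cluster supplied 86.4% and 96.7% of the Hox FPKM in paw Merkel 1 and 2, against 16.9% and 13.4% in back Merkel 1 and 2. Its share was 84.3% and 84.5% in paw IFE 1 and 2, against 24.6% in back IFE 1 and 81.2% in the library labelled back IFE 2. The Hoxb cluster ran the other way, with 4.16% and 0.479% in paw Merkel cells, against 60.0% and 76.5% in back Merkel cells. Hoxb3, whose values are uncertain, supplied 49.3 of 89.3 Hoxb FPKM in back Merkel 1 and 64.6 of 144 in back Merkel 2. The Hoxb share and the mean paralog number above carry that uncertainty. Its share in paw IFE cells was 4.93% and 2.14%, against 39.1% in back IFE 1 and 3.88% in the library labelled back IFE 2. The Hoxa cluster took 2.87% to 10.8% in the paw libraries, against 9.08% to 35.4% in back Merkel 1 and 2 and back IFE 1, and 9.91% in the library labelled back IFE 2. The Hoxd cluster stayed at or below 4.98% in every library. By FPKM the highest Hox gene was Hoxc12 in paw Merkel 1, both paw IFE libraries and the library labelled back IFE 2 (53.7 to 61.3 FPKM) and Hoxc10 in paw Merkel 2 (67.9 FPKM). It was Hoxb3 in back Merkel 1 and 2 (49.3 and 64.6 FPKM) and Hoxa2 in back IFE 1 (29.3 FPKM).

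**Figure D2:**
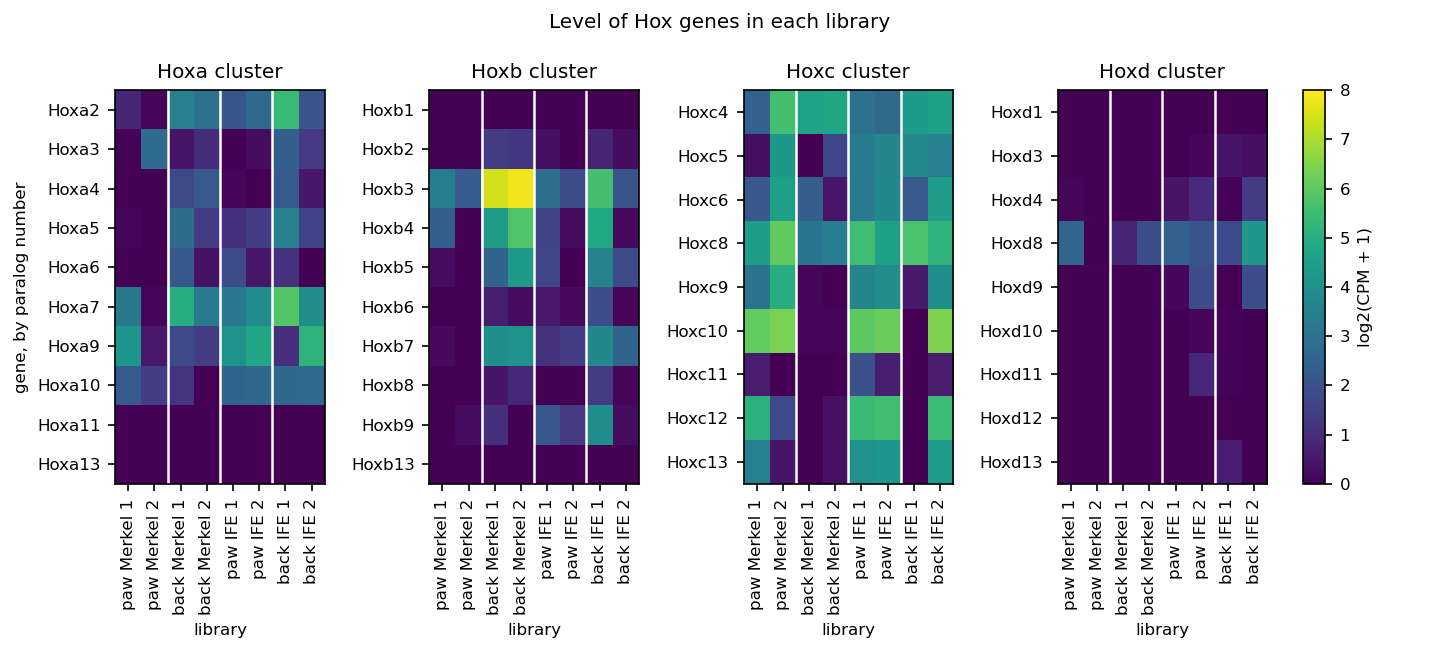
Level of the Hox genes (rows, by paralog number within each cluster, 1 gene not shown) in each library (columns), as log2(CPM + 1) on a common colour scale. Hoxc9, Hoxc10 and Hoxc12 are at 2.4 CPM or more in each paw library and in back IFE 2 and at or below 0.488 CPM in the other 3 back libraries, and Hoxb3 reaches its highest levels, 179 and 226 CPM, in back Merkel 1 and 2.

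At the 5′ end of the Hoxc cluster, Hoxc9, Hoxc10, Hoxc12 and Hoxc13 were read in the paw and hardly in back Merkel 1 and 2 and back IFE 1. Hoxc10, a gene of the lower trunk and hindlimb in the mouse embryo (chromosome 15, 102966796 to 102971893), measured 66.6 and 82.3 CPM in paw Merkel 1 and 2, against 0.0761 and 0.0977 CPM in back Merkel 1 and 2, which is 1 count in each. It measured 62.3 and 73.4 CPM in paw IFE 1 and 2, against 0 in back IFE 1 and 83.9 CPM in the library labelled back IFE 2. Every paw library thus lay above back Merkel 1 and 2 and back IFE 1 for Hoxc10, with no overlap, while the library labelled back IFE 2 had the highest level of all 8.

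Hoxc9 (102976439 to 102985099) measured 7.38 and 30.9 CPM in paw Merkel 1 and 2, against 0.0761 and 0 CPM in back Merkel 1 and 2. It measured 11.6 and 14.2 CPM in paw IFE 1 and 2, against 0.488 CPM in back IFE 1 and 14.8 CPM in the library labelled back IFE 2. Hoxc9 therefore divided the libraries as Hoxc10 did. Over the 2 libraries of each group, the counting ratio of paw Merkel over back Merkel cells was 842 for Hoxc10 (95% exact interval 233 to 6950, from 2283 and 2 counts) and 361 for Hoxc9 (64.4 to 14300, from 489 and 1 counts). Such intervals cover counting error only, because reads from amplified RNA are not independent molecules.

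Hoxc12 (102936757 to 102938609) measured 34.1 and 2.4 CPM in paw Merkel 1 and 2, against 0 and 0.293 CPM in back Merkel 1 and 2. In IFE cells it measured 42.7 and 46.7 CPM in paw IFE 1 and 2, against 0 in back IFE 1 and 44.1 CPM in the library labelled back IFE 2. Hoxc13, the gene of hair and nail (102921103 to 102928814), measured 10.4 and 0.369 CPM in paw Merkel 1 and 2, against 0 and 0.293 CPM in back Merkel 1 and 2. Paw Merkel 2 stood low for both genes, and for Hoxc13 its 4 counts were close to the 3 counts of back Merkel 2. In IFE cells Hoxc13 measured 15.5 and 17.3 CPM in paw IFE 1 and 2, against 0 in back IFE 1 and 20.5 CPM in the library labelled back IFE 2. Hoxc11 was low everywhere, at 0 to 2.93 CPM in paw libraries, against 0 in back Merkel 1 and 2 and back IFE 1 and 0.572 CPM in the library labelled back IFE 2.

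Further toward the 3′ end, Hoxc genes were read at both sites. Hoxc8, a gene of the thoracic region (102990607 to 102994111), measured 21.4 and 65.3 CPM in paw Merkel 1 and 2, against 7.68 and 9.67 CPM in back Merkel 1 and 2. In IFE cells it measured 45.7 and 22.2 CPM in paw IFE 1 and 2, against 52.1 CPM in back IFE 1 and 35.5 CPM in the library labelled back IFE 2. Its back Merkel libraries were thus the lowest, and the paw and back IFE libraries overlapped. Hoxc6 (102998257 to 103011881) measured 3.55 and 21.8 CPM in paw Merkel 1 and 2, against 4.34 and 0.391 CPM in back Merkel 1 and 2. In IFE cells it measured 8.56 and 12.3 CPM in paw IFE 1 and 2, against 3.69 CPM in back IFE 1 and 20.9 CPM in the library labelled back IFE 2. Hoxc4 and Hoxc5 were read at both sites: in IFE cells Hoxc4 measured 6.93 and 5.77 CPM in the paw, against 19.4 CPM in back IFE 1 and 22.9 CPM in the library labelled back IFE 2. For Hoxc4 the library labelled back IFE 2 therefore lay beside back IFE 1 and not beside the paw. In Merkel cells Hoxc4 measured 4.74 and 47.7 CPM in the paw, against 23.5 and 25.4 CPM in the back, and the sites overlapped. Hoxc5 measured 9.45 and 11.6 CPM in paw IFE cells, against 12.5 CPM in back IFE 1 and 10.1 CPM in the library labelled back IFE 2, a shared range.

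In back IFE 1 the Hoxc cluster was read up to Hoxc8 and hardly beyond it. Its level was 52.1 CPM at Hoxc8, 0.488 CPM at the neighbouring Hoxc9, and 0 counts at Hoxc10, Hoxc11, Hoxc12 and Hoxc13. A count of 0 allows up to 3 counts in that library.

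The anterior Hoxb genes Hoxb3 and Hoxb4 were highest in back Merkel 1 and 2 and back IFE 1. Hoxb3 (chromosome 11, 96323326 to 96347930), a gene of the hindbrain and neck region, measured 9.68 and 3.87 CPM in paw Merkel 1 and 2, against 179 and 226 CPM in back Merkel 1 and 2. Within IFE cells it measured 6.44 and 2.47 CPM in paw IFE 1 and 2, against 48.6 CPM in back IFE 1 and 3.21 CPM in the library labelled back IFE 2. Back Merkel 1 and 2 and back IFE 1 lay above every paw library, and the library labelled back IFE 2 lay within the range of the paw. Hoxb4, its neighbour (96318267 to 96321638), measured 4.55 and 0 CPM in paw Merkel 1 and 2, against 19.9 and 55.4 CPM in back Merkel 1 and 2. The IFE levels were 2.04 and 0.197 CPM in paw IFE 1 and 2, against 28.0 CPM in back IFE 1 and 0.153 CPM in the library labelled back IFE 2. Of the central members, Hoxb5 was at 0 to 2.28 CPM and Hoxb7 at 0 to 1.73 CPM in the paw libraries, against 4.79 to 19.4 and 12.3 to 15.9 CPM in back Merkel 1 and 2 and back IFE 1. In the library labelled back IFE 2 these genes stood between, at 2.56 CPM for Hoxb5 and 5.0 CPM for Hoxb7. Hoxb9, the posterior member that was read (96271457 to 96276595), measured 0 and 0.184 CPM in paw Merkel 1 and 2, against 1.14 and 0 CPM in back Merkel 1 and 2. Among IFE libraries it measured 3.5 and 1.53 CPM in paw IFE 1 and 2, against 14.1 CPM in back IFE 1 and 0.191 CPM in the library labelled back IFE 2. Hoxb9 thus ran against its class, with its highest level in back IFE 1. The other Hoxb genes were lower: Hoxb2, Hoxb6 and Hoxb8 stayed at or below 0.448 CPM in the paw libraries, against 0.195 to 2.71 CPM in back Merkel 1 and 2 and back IFE 1 and at most 0.191 CPM in the library labelled back IFE 2.

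In the Hoxa cluster Hoxa2 was highest in back IFE 1 and Hoxa9 in the library labelled back IFE 2. Hoxa2 (chromosome 6, 52162417 to 52164831), a gene of the hindbrain and its neural crest, measured 0.815 and 0.0922 CPM in paw Merkel 1 and 2, against 10.3 and 7.13 CPM in back Merkel 1 and 2. For IFE cells the levels were 3.38 and 5.68 CPM in paw IFE 1 and 2, against 41.5 CPM in back IFE 1 and 3.28 CPM in the library labelled back IFE 2. Hoxa9 (52223100 to 52231089), a posterior gene, measured 17.3 and 0.461 CPM in paw Merkel 1 and 2, against 2.43 and 1.76 CPM in back Merkel 1 and 2. Its IFE levels were 16.2 and 25.9 CPM in paw IFE 1 and 2, against 1.14 CPM in back IFE 1 and 35.6 CPM in the library labelled back IFE 2. The paw Merkel libraries straddled the back ones for Hoxa9, since paw Merkel 2 was the lowest of all 8. Hoxa7 was read at both sites, at 8.48 and 0.0922 CPM in paw Merkel cells against 30.6 and 8.6 CPM in back Merkel cells. Hoxa10 did not divide the IFE libraries, with 5.01 and 5.58 CPM in the paw, against 5.54 CPM in back IFE 1 and 5.61 CPM in the library labelled back IFE 2. Hoxa4 was at or below 0.0815 CPM in the paw libraries, against 2.43 to 3.8 CPM in back Merkel 1 and 2 and back IFE 1 and 0.42 CPM in the library labelled back IFE 2. Hoxa5 was at 0 to 1.73 CPM in the paw libraries, against 1.66 to 10.3 CPM in the same 3 back libraries and 2.06 CPM in the library labelled back IFE 2. Hoxa3 and Hoxa6 did not exceed 5.9 CPM in any library.

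The Hoxd cluster was low at both sites. Hoxd8 (chromosome 2, 74704615 to 74707933) measured 5.13 and 0 CPM in paw Merkel 1 and 2, against 0.761 and 2.83 CPM in back Merkel 1 and 2. In IFE cells it measured 4.73 and 3.26 CPM in paw IFE 1 and 2, against 2.5 CPM in back IFE 1 and 18.1 CPM in the library labelled back IFE 2, the highest of all 8. By FPKM Hoxd8 stood above Hoxd9 in the library labelled back IFE 2 (8.39 against 2.4 FPKM), and Hoxd9 above Hoxd8 in paw IFE 2 (2.36 against 1.83 FPKM). Hoxd13, which with Hoxa13 patterns the digits in mouse limb mesenchyme, had 10 counts in back IFE 1 and 0 elsewhere. In all, 6 of the 39 genes had 0 counts in every library: Hoxa11, Hoxa13, Hoxb1, Hoxb13, Hoxd1 and Hoxd12.

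The 2 paw Merkel libraries also differed in their Hox genes. With a difference counted as a 4-fold ratio with 1 CPM added, among genes at 10 CPM or more in either library, 6 of 9 Hox genes differed, or 66.7%, against 14.0% of 9404 genes. Of the 9, 8 were Hoxc genes, of which 5 differed. Paw Merkel 2 was higher for Hoxc4 (47.7 CPM, against 4.74 CPM in paw Merkel 1), Hoxc5 (18.3 against 0.24 CPM) and Hoxc6 (21.8 against 3.55 CPM). It was lower for Hoxa9, Hoxc12 and Hoxc13, whose levels are given above. Hoxc10, by contrast, measured 82.3 CPM in paw Merkel 2 and 66.6 CPM in paw Merkel 1. Both kept a low Hoxb share, 0.479% in paw Merkel 2 and 4.16% in paw Merkel 1. Keratinocyte markers differed between them too: 4 suprabasal markers summed to 389 CPM in paw Merkel 2 and 5170 CPM in paw Merkel 1, and 7 basal markers to 1860 CPM in paw Merkel 2 and 3450 CPM in paw Merkel 1. Their part in the Hox difference was not tested.

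**Figure D3:**
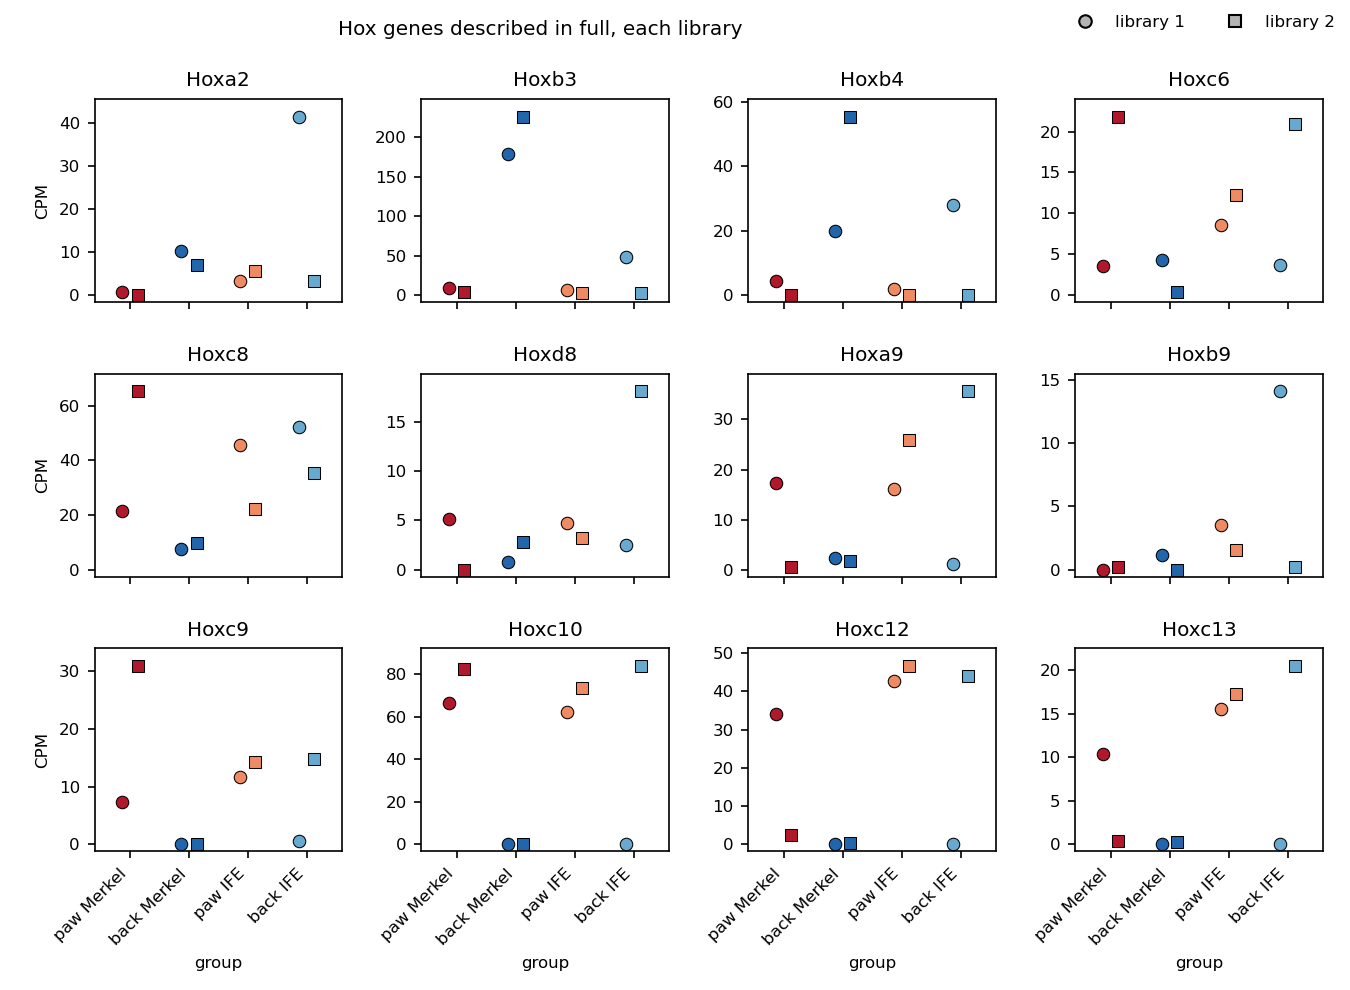
CPM (y axis) of the 12 Hox genes described in full, one panel per gene, in the 4 groups (x axis), with library 1 as a circle and library 2 as a square and no error bars. For Hoxc10 the back IFE circle lies at 0 and the back IFE square at 83.9 CPM, above the 62.3 and 73.4 CPM of paw IFE, and for Hoxb3 the back IFE square lies at 3.21 CPM beside paw IFE.

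Set against its own replicate, the library labelled back IFE 2 differed more in Hox genes than in most others. Of 18 Hox genes with at least 10 CPM in either back IFE library, 11 differed by 4-fold or more after 1 CPM was added to both, or 61.1%, against 5.6% of the 9075 genes at that level. Single libraries allow no test. Against paw IFE 1 the library labelled back IFE 2 differed in 0 of 11 Hox genes (1.04% of 8810 genes), and against paw IFE 2 in 1 of 11, Hoxd8 (1.96% of 8763 genes), by the same measure. For scale, 0 of 9 Hox genes differed between paw IFE 1 and 2 (1.74% of all genes). The count was 0 of 7 between back Merkel 1 and 2 (7.82%), but 6 of 9 between paw Merkel 1 and 2 (14.0%). Between back IFE 1 and back Merkel 1, 3 of 11 differed (Hoxb9, Hoxc5 and Hoxc8), or 27.3%, close to the 28.2% of all genes. Between back IFE 1 and back Merkel 2, 7 of 11 differed, or 63.6%, against 32.6% of all genes.

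Of the 7 genes higher in the library labelled back IFE 2, 5 were posterior. Hoxc10 had 2198 counts there and 0 in back IFE 1, at least 515-fold higher if that library is given a floor of 3 counts. Hoxc12 was at least 271-fold and Hoxc13 at least 126-fold higher by the same floor, from 1155 and 536 counts against 0. Hoxa9 was 31.2-fold higher (95% exact interval 20.3 to 50.7) and Hoxc9 30.3-fold (15.8 to 66.8). The central genes Hoxd8 and Hoxc6 were 7.26-fold (5.36 to 10.1) and 5.66-fold higher (4.39 to 7.39). In the other direction, back IFE 1 was higher by 183-fold for Hoxb4 (71.1 to 675), 73.9-fold for Hoxb9 (31.3 to 230), 15.2-fold for Hoxb3 (12.1 to 19.2) and 12.6-fold for Hoxa2 (10.1 to 16.0). With 1 CPM added, Hoxc6 was just past the 4-fold limit at 4.66, and Hoxa5 and Hoxa7 fell just short of it at 3.7 and 3.61, both higher in back IFE 1. Of the 7 genes that did not reach 4-fold, Hoxc4, Hoxc5 and Hoxc8 came from the 3′ part of Hoxc, and the other 4 were Hoxa5, Hoxa7, Hoxb5 and Hoxb7.

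**Figure D4:**
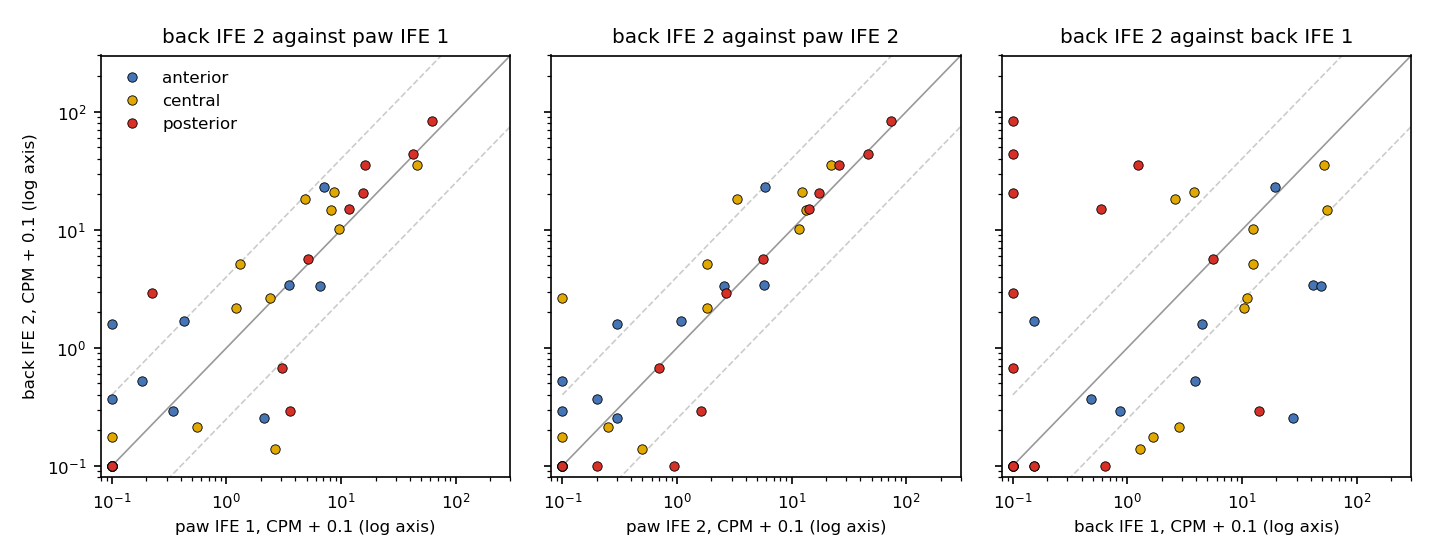
Each point is a Hox gene (1 not shown), coloured by position class, with its CPM + 0.1 in back IFE 2 (y axis) against paw IFE 1, paw IFE 2 or back IFE 1 (x axis), all on log axes. The solid line marks equal levels and the dashed lines 4-fold, and Hoxc9, Hoxc10, Hoxc12 and Hoxc13 lie within the dashed lines against both paw libraries but far above them against back IFE 1, where Hoxc10 is at 0.

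Promoter sequences are printed for the genes among these 11 that have an entry in the RefSeq table of GRCm38.p6 (250 bases before to 50 after the start), because they stand for both directions of the split. Hoxa2 (chr6:52164782-52165081, minus strand) and Hoxb4 (chr11:96318017-96318316, plus strand) were higher in back IFE 1. Hoxa9 (chr6:52227321-52227620, minus strand) and Hoxd8 (chr2:74704365-74704664, plus strand) were higher in the library labelled back IFE 2. Capitals mark matches to TGATNNAT on either strand, the composite motif that Hox proteins bind together with their cofactor Pbx.
Hoxa2: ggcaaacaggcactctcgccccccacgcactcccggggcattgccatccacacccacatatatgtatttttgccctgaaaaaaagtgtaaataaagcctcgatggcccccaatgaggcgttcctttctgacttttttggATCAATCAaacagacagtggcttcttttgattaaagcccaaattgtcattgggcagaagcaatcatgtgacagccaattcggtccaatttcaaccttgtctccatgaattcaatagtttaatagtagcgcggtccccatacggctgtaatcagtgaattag
Hoxb4: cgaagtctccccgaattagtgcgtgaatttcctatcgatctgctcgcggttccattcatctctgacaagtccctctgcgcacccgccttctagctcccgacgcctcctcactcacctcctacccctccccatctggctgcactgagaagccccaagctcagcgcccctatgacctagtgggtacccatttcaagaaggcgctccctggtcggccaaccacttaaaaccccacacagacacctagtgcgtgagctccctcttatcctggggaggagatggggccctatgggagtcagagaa
Hoxa9: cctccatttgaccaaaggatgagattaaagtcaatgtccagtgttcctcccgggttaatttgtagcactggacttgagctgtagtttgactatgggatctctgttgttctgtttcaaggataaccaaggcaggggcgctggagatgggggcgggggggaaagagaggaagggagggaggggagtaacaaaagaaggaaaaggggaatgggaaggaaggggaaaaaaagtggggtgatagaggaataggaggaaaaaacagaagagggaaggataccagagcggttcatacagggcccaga
Hoxd8: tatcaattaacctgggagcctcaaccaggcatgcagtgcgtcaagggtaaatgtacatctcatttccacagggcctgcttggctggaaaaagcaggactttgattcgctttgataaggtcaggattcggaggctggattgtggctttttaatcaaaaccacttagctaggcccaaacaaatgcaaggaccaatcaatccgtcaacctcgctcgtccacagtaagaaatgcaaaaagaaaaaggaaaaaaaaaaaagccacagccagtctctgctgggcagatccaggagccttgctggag
Among these 4 promoters the motif was found in that of Hoxa2, as its reverse complement. It was found in 4 of the 24 Hox promoters in the table (16.7%), and in 2906 of all 32851 promoters (8.85%). A match is a description of letters and not a bound site.

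The tests compared groups with edgeR's quasi-likelihood test over 15151 genes, 28 of them Hox genes (8 of 12 anterior, 11 of 11 central and 9 of 16 posterior). The remaining 11 Hox genes had too few counts to enter, and since a gene can enter through the group where it is high, counts over these 28 are not counts over all 39. For the same reason, a split of such counts by position class is a description and no test. Of the 12 genes described in full, 11 are those split by 4-fold or more between the back IFE libraries, and Hoxc8 was added because it passed a test.

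Paw IFE cells against back IFE cells asks how the same epidermal cell type differs between sites. With all libraries, 0 of 28 Hox genes passed, against a background of 0.0% of all genes. An unadjusted p under 0.05 by edgeR was found for 1 Hox gene, Hoxb3 (0.0251). That is 3.57% of the Hox genes tested, against 4.24% of all genes. DESeq2 (background 0.599%) and limma-trend (background 0.0%) also called 0 Hox genes, and so did edgeR on the IFE libraries alone (background 0.0%). Hoxc10 had a log2 fold change of 0.69 (SE 1.49) and Hoxb3 of -2.53 (SE 0.98, adjusted p = 1 by edgeR for both). Standard errors (SE) here were worked back from the test's F value and carry no information beyond the test. Both paw libraries lay above both back libraries for 1 Hox gene, Hoxc11 (background 20.2%), and below them for 8 (background 20.2%). Those 8 were Hoxa3, Hoxa4, Hoxa5, Hoxa7, Hoxb5, Hoxb7, Hoxb8 and Hoxc4.

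Without the library labelled back IFE 2, 2 Hox genes passed the same test, against a background of 0.41%, with the lone back IFE library assumed to vary like the other groups. Hoxc10 was higher in paw IFE cells (adjusted p = 0.00109 by edgeR), at least 414-fold, with 3 counts as the floor of back IFE 1. Hoxb3 was lower, with a log2 fold change of -3.44 (SE 0.67, adjusted p = 0.0361 by edgeR). By level alone, 10 of 28 Hox genes were above back IFE 1 in both paw libraries, a share under the background of 39.7%. Below it in both were 16, against a background of 36.1%. The 10 included 7 of the 9 posterior genes tested, and the 16 included 7 of 8 anterior and 8 of 11 central ones. Genes near 0 counts in back IFE 1 entered through libraries where they were high. The split by class is thus a description, partly set by the filter.

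Paw Merkel cells against back Merkel cells puts the same question to the touch receptors. Values of back IFE cells enter it only through the low-count filter, the scaling and the shared estimate of spread. With all libraries 0 of 28 Hox genes passed by edgeR, against a background of 0.185%, although 12 of 28 (42.9%) had an unadjusted p under 0.05, against 10.2% of all genes. Limma-trend called 0 Hox genes (background 0.125%), and DESeq2 called 8, 3 of them higher in the paw (Hoxc8, Hoxc9 and Hoxc10) and 5 lower (Hoxa2, Hoxa5, Hoxb3, Hoxb5 and Hoxb7), against a background of 3.76%. The libraries did not overlap for 6 Hox genes higher in paw Merkel cells (background 18.2%) and 12 lower (background 17.2%). The 6 were Hoxa10, Hoxc8, Hoxc9, Hoxc10, Hoxc12 and Hoxc13, and the 12 were all anterior (5) or central (7). By edgeR Hoxb3 had a log2 fold change of -4.89 (SE 1.08, adjusted p = 0.124), Hoxc9 of 8.62 (SE 2.02, adjusted p = 0.143) and Hoxc10 of 9.65 (SE 2.40, adjusted p = 0.178).

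Without the library labelled back IFE 2 the standard errors were smaller, and 3 Hox genes passed in Merkel cells by edgeR (background 0.478%). Hoxb3 was lower in the paw (log2 fold change -4.89, SE 0.66, adjusted p = 0.00251). Hoxc10 (9.64, SE 0.88, adjusted p = 0.000138) and Hoxc9 (8.61, SE 1.71, adjusted p = 0.0359) were higher. A fit to the Merkel libraries alone called Hoxc10 (9.62, adjusted p = 0.012) and Hoxb3 (-4.88, adjusted p = 0.026), against a background of 0.0381%.

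Over both cell types together, paw against back gave 0 Hox genes by edgeR (background 0.0%), with 12 of 28 at an unadjusted p under 0.05 against 8.2% of all genes. DESeq2 called 7, of which Hoxc9 was higher and 6 were lower (Hoxa2, Hoxa4, Hoxa5, Hoxb3, Hoxb5 and Hoxb7, background 2.03%), and limma-trend called 0 (background 0.0%). All 4 paw libraries lay above all 4 back libraries for 0 Hox genes (background 1.03%) and below them for 4, Hoxa4, Hoxb5, Hoxb7 and Hoxb8 (background 0.878%). Without the library labelled back IFE 2 those counts were 4 above (Hoxc9, Hoxc10, Hoxc12 and Hoxc13, background 3.12%) and 8 below (background 2.17%). By edgeR 5 Hox genes then passed, against a background of 0.564%. Hoxc10, Hoxc12 and Hoxc9 were higher in the paw (adjusted p = 2.5e-05, 0.0117 and 0.0397), and Hoxb3 and Hoxb7 lower (log2 fold changes -4.16 and -5.23, adjusted p = 0.000329 and 0.0495).

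Merkel cells against IFE cells of the same site asks whether the touch receptor shares the Hox pattern of the epidermis around it. In the paw 0 of 28 Hox genes passed by edgeR (background 6.21%), and limma-trend called 0 (background 7.23%). By edgeR 4 had an unadjusted p under 0.05, or 14.3%, against 21.1% of all genes. DESeq2 called 1, Hoxb7, which was lower in paw Merkel cells (background 15.4%). Without the library labelled back IFE 2, edgeR again called 0 in the paw (background 7.54%). Both paw Merkel libraries lay above both paw IFE libraries for 0 Hox genes (background 24.8%) and below them for 12 (background 28.7%), 6 of them posterior. In the back 3 Hox genes passed by edgeR, all lower in Merkel cells, against a background of 15.4% of all genes. They were Hoxc9 (log2 fold change -7.30, SE 1.95, adjusted p = 0.0273), Hoxc10 (-8.82, SE 2.36, adjusted p = 0.0275) and Hoxc8 (-2.34, SE 0.69, adjusted p = 0.0413). DESeq2 called 5 (background 27.2%), these 3 and Hoxc13 lower and Hoxb3 higher in Merkel cells, and limma-trend called Hoxc8 lower and Hoxb3 higher (background 21.1%). Both back Merkel libraries lay above both back IFE libraries for Hoxb2, Hoxb3, Hoxb7 and Hoxc4 (background 29.1%) and below them for 6 Hox genes (background 32.8%).

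Of these, Hoxc9 and Hoxc10 rested on the library labelled back IFE 2. Without it the log2 fold change of Hoxc10 was 3.65 by edgeR, on 1 count in each back Merkel library against 0 in back IFE 1. Hoxc9 had 0.488 CPM in back IFE 1, against 0.0761 and 0 CPM in back Merkel 1 and 2. Hoxc8 had 7.68 and 9.67 CPM in back Merkel 1 and 2, against 52.1 CPM in back IFE 1 alone, and its log2 fold change of -2.59 without the other library had an adjusted p of 0.0527 by edgeR. Set against back IFE 1 alone, both back Merkel libraries were above it for 6 Hox genes (background 37.3%) and below it for 13 (background 40.6%).

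Whether the site difference itself differed between Merkel and IFE cells was tested as an interaction. By edgeR 0 of 28 Hox genes passed (background 0.0%) and 5 had an unadjusted p under 0.05 (17.9%, against 9.01% of all genes). Limma-trend called 0 (background 0.0%), and DESeq2 called Hoxc9 (background 2.05%). Without the library labelled back IFE 2, edgeR called 0 (background 0.251%), with 1 at an unadjusted p under 0.05.

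Some other genes of position and site went with the Hox profile of the library labelled back IFE 2. En1, a factor of the ventral limb ectoderm, measured 11.3 and 21.7 CPM in paw Merkel 1 and 2, against 0.0761 and 0.195 CPM in back Merkel 1 and 2. In IFE cells it measured 24.7 and 27.3 CPM in paw IFE 1 and 2, against 0 in back IFE 1 and 39.3 CPM in the library labelled back IFE 2. Hotair, a noncoding RNA on the antisense strand of the Hoxc cluster, shared no exonic bases with a Hox gene. Its overlap with other genes was not examined. Hotair measured 13.6 and 11.3 CPM in paw IFE 1 and 2, against 0 in back IFE 1 and 10.3 CPM in the library labelled back IFE 2. Krt9, the keratin of palms and soles, measured 191 and 309 CPM in paw IFE cells, against 7.11 CPM in back IFE 1 and 307 CPM in the library labelled back IFE 2. These 3 genes placed that library beside the paw libraries as the Hox genes did, with En1 above every paw library. Of the other palmoplantar markers, Krt6a ran with Krt9 in IFE cells. Paw IFE cells had 83.5 and 44.3 CPM, back IFE 1 had 9.93 CPM and the library labelled back IFE 2 had 42.0 CPM. Krt16, a keratin of stressed and palmoplantar skin, did not divide the IFE libraries that way. Its levels were 28.5 and 62.9 CPM in the paw, 53.0 in back IFE 1 and 24.8 in the library labelled back IFE 2. Krt6b ran the other way, with back IFE 1 highest at 22.6 CPM. The library labelled back IFE 2 had 1.18 CPM of it, beside 1.63 and 1.28 CPM in paw IFE cells. Tbx5, a factor of the forelimb, was an exception, at 7.4 CPM in the library labelled back IFE 2 and 0 in the other 7 libraries. Pitx1, a factor of the hindlimb, measured 1.49 and 8.94 CPM in paw Merkel cells, against 0 and 0.195 CPM in back Merkel cells, and among IFE libraries it was at 0.326 and 0 CPM in the paw, against 2.5 CPM in back IFE 1 and 0 in the library labelled back IFE 2. Skap2, the gene beyond the anterior end of the Hoxa cluster, measured 7.05 and 12.7 CPM in paw IFE cells, against 233 CPM in back IFE 1 and 34.7 CPM in the library labelled back IFE 2, which lay between.

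**Figure D5:**
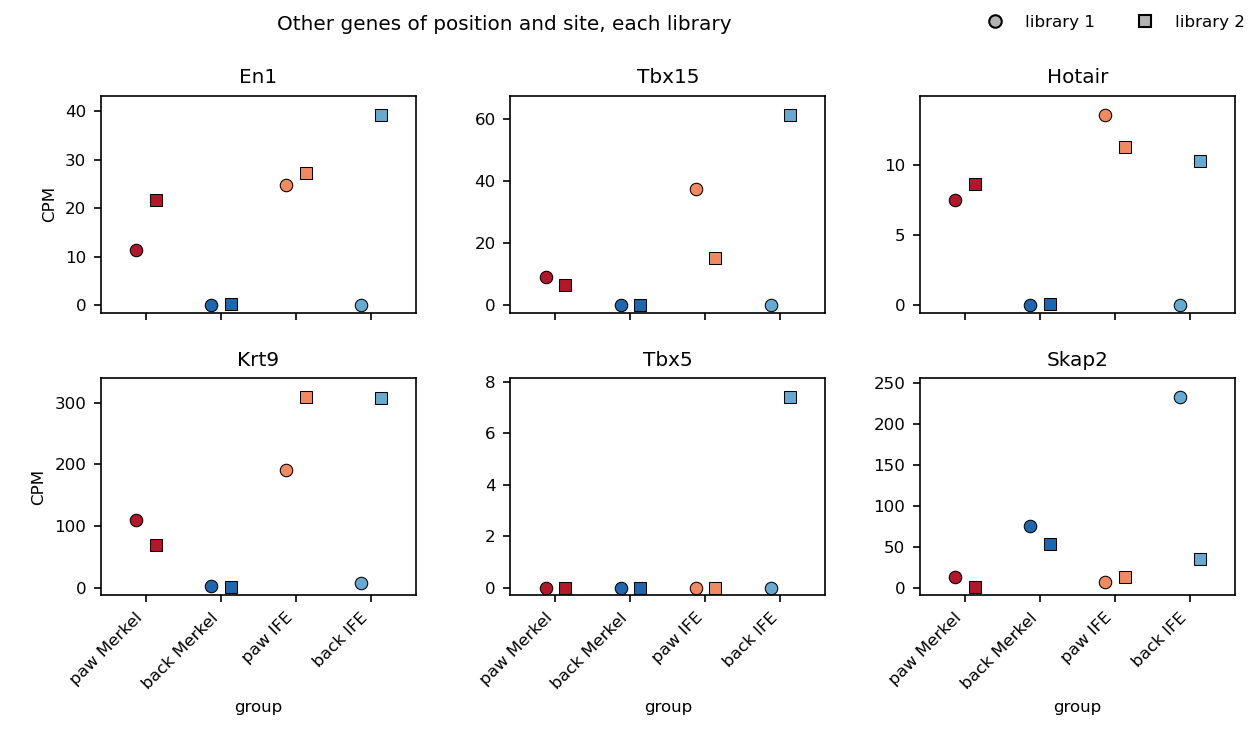
CPM (y axis) of 6 other genes of position and site in the 4 groups (x axis), with library 1 as a circle and library 2 as a square and no error bars. The back IFE circle lies at 0 for En1 and Hotair. The back IFE square lies at 39.3 CPM for En1, above all paw values, and at 10.3 CPM for Hotair, among them. Tbx5 is above 0 only in back IFE 2.

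Markers of other cell types moved with the split as well, and their part in it was not tested. The summed level of 12 fibroblast markers was 732 and 767 CPM in paw IFE 1 and 2, against 1640 CPM in back IFE 1 and 850 CPM in the library labelled back IFE 2. Postn alone, a matrix protein, supplied 92.4 and 240 CPM in paw IFE cells, against 1490 CPM in back IFE 1 and 249 CPM in the library labelled back IFE 2. The other 11 ran the opposite way, at 640 and 526 CPM in paw IFE cells, against 147 CPM in back IFE 1 and 601 CPM in the library labelled back IFE 2. Of the 12 markers, 7 to 11 had counts in a library. Twist2 was at 0 in every library, and Lum and Pdgfrb did not exceed 1.72 CPM, while Col3a1 measured 152 and 185 CPM in paw IFE cells, against 8.09 CPM in back IFE 1 and 195 CPM in the library labelled back IFE 2. The 6 immune markers summed to 39.6 and 21.0 CPM in paw IFE cells, against 731 CPM in back IFE 1 and 110 CPM in the library labelled back IFE 2. The 12 hair follicle markers summed to 242 and 290 CPM in paw IFE cells, against 680 CPM in back IFE 1 and 253 CPM in the library labelled back IFE 2. Krt17 made up 102 and 145 CPM of that in paw IFE cells, against 524 CPM in back IFE 1 and 130 CPM in the library labelled back IFE 2. The other 11 summed to 140 and 145 CPM in paw IFE cells, against 156 CPM in back IFE 1 and 123 CPM in the library labelled back IFE 2. In Merkel cells, where Hoxc10 was also higher in both paw libraries than in both back libraries, immune markers summed to 8.05 and 0.553 CPM in the paw, against 0.152 and 0.489 CPM in the back. The 7 basal keratinocyte markers summed to 3450 and 1860 CPM in paw Merkel cells, against 1070 and 1520 CPM in back Merkel cells. Their median log2 fold change was 1.15, and 0 of 7 passed by edgeR. All 7 had an unadjusted p under 0.05 by edgeR in at least 1 of the 3 site comparisons. Both sort gates kept EpCAM+ cells. Among fibroblast markers Dcn was higher in paw than in back Merkel cells (86.1 and 55.5 CPM, against 5.1 and 3.61 CPM, log2 fold change 4.02, adjusted p = 0.0336 by edgeR). Col3a1 measured 13.4 and 6.36 CPM in paw Merkel cells, against 0.228 and 0.195 CPM in back Merkel cells, and Fbn1 measured 32.2 and 29.4 CPM in the paw, against 3.04 and 0.0977 CPM in the back. Col1a2 lay the other way, at 32.1 and 23.8 CPM in the paw, against 165 and 74.0 CPM in the back. The median log2 fold change of the 8 fibroblast markers tested was 3.38, and DESeq2 called 3 higher and 1 lower in the paw (background 3.76%). The 12 together summed to 192 and 118 CPM in paw and 204 and 158 CPM in back Merkel cells.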

How the data were processed

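RNA was measured in 8 libraries, 2 for each of 4 groups named by the labels. The authors deposited gene counts, whole numbers per gene symbol, and FPKM values that they had scaled to transcript length and depth. Per the submitters' processing notes, the build mm10 and the tools TopHat2 2.0.13, Cufflinks 2.2.1, featureCounts (Subread 1.4.6) and DESeq2 1.6.3 are named without their roles, while annotation and strand setting are not given in the sources used here. Each count file holds 1 library, 11139306 to 26195076 counts. From the counts, edgeR 4.0.16 in R 4.3.3 (filterByExpr by group, TMM, 1 mean per group over all 8 libraries, 4 residual degrees of freedom, glmQLFit and glmQLFTest, Benjamini-Hochberg over 15151 genes, threshold 0.05) tested 6 comparisons. Alternatives were DESeq2 1.42.0, limma-trend (limma 3.58.1, prior count 2), RLE size factors, no filter, log2 FPKM with a pseudocount of 1 or 0.1 (genes at FPKM 1 or more in 2 libraries), a replicate block, leaving out each library, and 1 cell type alone. The SE given with edgeR is the absolute log2 fold change divided by the square root of the F value of the test. The model code was tested on simulated data.

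Members, gene lists and tests were chosen with earlier results of these data known. Hox genes were described in full if past the threshold in any comparison, or at 10 CPM or more in a back IFE library with a 4-fold ratio between the 2 after adding 1 CPM. Gene lists were Hox cofactors, noncoding genes of the clusters, genes next to the clusters, limb position factors, Polycomb and trithorax regulators with Cdx and retinoic acid genes, palmoplantar and hair follicle markers, and markers of Merkel, basal, suprabasal, fibroblast, melanocyte, endothelium, immune, Schwann, muscle and erythroid cells. Homeodomain sequences were planned and are not printed. Values of 1 Hox gene are not reported here, though it stays in sums and counts.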

Additional observations from a re-analysis of the deposited data

How the results depend on the processing

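The number of Hox genes called depended on the setting. Shares of all genes called are given above for DESeq2, limma-trend, single cell types and edgeR with and without back IFE 2. For the other settings no such share is given, so whether their Hox calls follow more calls overall was not tested. With all libraries and the low-count filter, edgeR called 3 in back Merkel against back IFE cells and 0 in the other comparisons. With no filter on low counts, edgeR called 1 Hox gene in paw against back IFE cells, 9 in paw against back Merkel cells, 8 over both cell types, 7 in back Merkel against back IFE cells and 3 for the interaction. DESeq2 called 8, 7, 1, 5 and 1 in paw against back Merkel cells, over both cell types, in paw Merkel against paw IFE cells, in back Merkel against back IFE cells and for the interaction. FPKM values called 1 (pseudocount 1) and 0 (pseudocount 0.1) Hox genes in back Merkel against back IFE cells. A fit to the Merkel libraries alone, chosen after seeing the data, called 2 between sites. Differences between library 1 and library 2 were correlated at -0.0427 to 0.0845 between groups. With 2 libraries a group, such values cannot tell whether same-numbered samples came from the same animals. With the replicate block, 1 Hox gene, Hoxb3, passed in paw against back Merkel cells and 4 in back Merkel against back IFE cells. RLE size factors called the same number as TMM in every comparison.

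Leaving out 1 library at a time, with the lone sample of a group assumed to vary like the other groups, gave 0 to 2 Hox calls in paw against back IFE cells, 0 to 4 in paw against back Merkel cells, 0 to 5 over both cell types, 0 to 2 in paw Merkel against paw IFE cells, 0 to 5 in back Merkel against back IFE cells and 0 to 1 for the interaction. Among these runs, a share of all genes called is given above only for the one without back IFE 2. Whether the other counts follow more calls overall was not tested. In back Merkel against back IFE cells there were 0 calls without either back Merkel library or back IFE 2, and 5 without each other library. The 2 calls in paw Merkel against paw IFE cells, Hoxa7 and Hoxc4, came without paw Merkel 1.

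With 1 library left out, log2 fold changes in paw IFE against back IFE cells ran from -3.19 (without back IFE 2) to 0.46 (without back IFE 1) for Hoxa2, -0.76 (without back IFE 1) to 4.20 (without back IFE 2) for Hoxa9, with -0.18 without paw IFE 2, -3.44 (without back IFE 2) to 0.48 (without back IFE 1) for Hoxb3. They ran from -6.10 (without paw IFE 1) to 2.82 (without back IFE 1) for Hoxb4, -2.48 (without back IFE 2) to 3.67 (without back IFE 1) for Hoxb9, -1.0 (without back IFE 1) to 1.5 (without back IFE 2) for Hoxc6. They ran from -0.98 (without paw IFE 1) to 0.06 (without paw IFE 2) for Hoxc8, -0.20 (without back IFE 1) to 4.70 (without back IFE 2) for Hoxc9, -0.31 (without back IFE 1) to 13.16 (without back IFE 2) for Hoxc10. They ran from -0.32 (without back IFE 1) to 11.12 (without back IFE 2) for Hoxc13, -2.18 (without back IFE 1) to 0.68 (without back IFE 2) for Hoxd8. With 1 library left out, log2 fold changes in paw Merkel against back Merkel cells ran from -2.16 (without paw Merkel 1) to 3.04 (without paw Merkel 2) for Hoxa9, -6.48 (without paw Merkel 2) to 3.69 (without back Merkel 1) for Hoxb9, -7.97 (without paw Merkel 1) to 1.76 (without back Merkel 2) for Hoxd8, with -0.07 without back Merkel 1. With 1 library left out, log2 fold changes in back Merkel against back IFE cells ran from -9.83 (without back IFE 1) to 3.65 (without back IFE 2) for Hoxc10.

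Outside the runs that leave out a library, 3 genes changed sign. In paw against back IFE cells Hoxb9 had a log2 fold change of 0.23 with limma-trend and 0.50 with FPKM and pseudocount 0.1, and Hoxc6 of 0.21 with limma-trend and 0.03 with the replicate block. In paw against back Merkel cells Hoxd8 had -1.07 with limma-trend, -0.14 with FPKM and pseudocount 1 and -1.09 with pseudocount 0.1. Of the single-gene values under all alternatives, 357 kept direction and side of the threshold, 29 newly passed it, 17 no longer passed and 24 changed direction. The cause of these changes was not tested. With 2 libraries a group and 3 counts as the floor, differences of genes near 0 counts were limited by depth.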

Other observations

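Hox cofactors of the TALE family, which bind DNA beside Hox proteins, were not called between sites. With 8 of 9 tested, edgeR's quasi-likelihood test, DESeq2 and limma-trend each called 0 over the 3 site comparisons, and 3 had an unadjusted p under 0.05. Such unadjusted counts, here and for the lists below, take genes under 0.05 in any of the comparisons named. No share of all genes is given for them. Between back Merkel and back IFE cells edgeR called 2. In that comparison 15.4% of all genes were called, which is the background for each list below. Meis3 was higher in back Merkel cells (51.8 and 13.1 CPM, against 0.38 and 1.22 CPM, log2 fold change 5.32, adjusted p = 0.0165) and Meis1 lower (31.1 and 24.1 CPM, against 48.4 and 115 CPM, log2 fold change -1.56, adjusted p = 0.0474). Without back IFE 2, the library with 115 CPM, Meis1 did not pass (-0.81, adjusted p = 0.407 by edgeR) and Meis3 did (6.39, adjusted p = 0.0312). Another list joined genes of the Polycomb and trithorax complexes, which keep Hox genes silent or active, with Cdx genes and 3 genes of retinoic acid signalling (Rarb, Rarg and Cyp26b1). Of its 20 genes tested, Cbx7 and Kmt2a were higher in back Merkel than in back IFE cells by edgeR (log2 fold changes 3.23 and 1.30, adjusted p = 0.023 and 0.0337). Without back IFE 2 Kmt2a passed (1.66, adjusted p = 0.0307 by edgeR) and Cbx7 did not (3.01, adjusted p = 0.136). Between sites edgeR and limma-trend called 0 of these 20, DESeq2 called Cbx8, and 3 had an unadjusted p under 0.05 by edgeR.

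Of 6 genes next to the clusters tested, Lnpk, beside Hoxd, was higher in back Merkel than in back IFE cells by edgeR (log2 fold change 1.77, adjusted p = 0.0174, and 1.89, adjusted p = 0.0461 without back IFE 2). For Skap2 the log2 fold change of paw against back over both cell types was -3.48 with all libraries (adjusted p = 0.216 by edgeR). Without back IFE 2 it was -3.88. Of 5 noncoding genes of the clusters tested, edgeR and limma-trend called 0 with all libraries, DESeq2 called Hotair and Hotairm1, and 3 had an unadjusted p under 0.05 by edgeR. Hotair was higher in the paw over both cell types without back IFE 2 (adjusted p = 0.0395 by edgeR).

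Of 8 limb position factors tested, Tbx15 was lower in back Merkel than in back IFE cells (log2 fold change -9.24, adjusted p = 0.0256 by edgeR). Its levels were 0 and 0.0977 CPM in back Merkel 1 and 2, while back IFE 1 had 0.109 CPM and the library labelled back IFE 2 had 61.3 CPM. Tbx15 was also read in the paw, at 9.01 and 6.45 CPM in paw Merkel 1 and 2 and 37.3 and 15.1 CPM in paw IFE 1 and 2. Without the library labelled back IFE 2 the log2 fold change of Tbx15 between back Merkel and back IFE cells was -1.17. Between paw and back Merkel cells, En1 had a log2 fold change of 6.90 with all libraries (adjusted p = 0.307 by edgeR). Without the library labelled back IFE 2 it was 6.89. Of 4 palmoplantar markers tested, Krt16 was lower in Merkel than in IFE cells at both sites by edgeR, and Krt9 in the back. For Krt9 the log2 fold change was -6.85 with all libraries (adjusted p = 0.00746 by edgeR) and -2.39 without back IFE 2. Between sites, Krt9 measured 110 and 69.1 CPM in paw Merkel 1 and 2, against 2.05 and 0.586 CPM in back Merkel 1 and 2.

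Of 10 hair follicle markers tested, a list that holds Hoxc13, edgeR called Krt17, which was lower in back Merkel than in back IFE cells (log2 fold change -2.33 with all libraries and -3.02 without back IFE 2, adjusted p = 0.0442 and 0.0036). Fibroblast markers had 1 higher and 5 lower of 8 tested in back Merkel against back IFE cells, and 2 lower in paw Merkel against paw IFE cells. Of all genes 15.4% were called in the back and 6.21% in the paw. Immune markers had 3 lower of 6 tested in the back and 1 in the paw. Without back IFE 2 the fibroblast counts were 1 higher and 5 lower of 10 tested in the back and 3 lower in the paw, and the immune counts 3 lower in the back and 2 in the paw. Among suprabasal, Schwann, endothelium, melanocyte, muscle and erythroid markers edgeR called 0 in the 6 comparisons with all libraries, and 1 suprabasal marker, Krtdap, lower in back Merkel than in back IFE cells without back IFE 2. At an unadjusted p under 0.05 it had 3 of 4 suprabasal markers and 1 of 3 endothelium markers, and 0 of the other lists. DESeq2 called the same numbers, and limma-trend called 1 endothelium marker. These counts take genes past the limit in any of the 6 comparisons, and no share of all genes is given for them.

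Xist, transcribed from the inactive X chromosome, measured 1690 to 7350 CPM, and the Y-linked Ddx3y 44.1 to 103 CPM, over the 8 libraries.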
